A study of Mus musculus with 15 samples.

Results

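Chemokine genes and their receptor genes were followed in liver RNA sequencing from 14 male C57BL/6J mice, an inbred laboratory strain, by symbol alone. Every row of the count table whose symbol began with Ccl, Cxcl, Cx3cl, Xcl, Ccr, Cxcr, Cx3cr or Xcr, followed by a number and at most 1 letter, was a member. The rule found 56 of the 57132 gene identifiers, 38 of them ligands and 18 receptors. The 42 members with at least 10 counts in 4 or more libraries are reported here, 28 ligands and 14 receptors.

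Mice entered the study at 8 weeks of age. The 4 Chow libraries came from mice on standard chow. The 5 Vehicle and 5 SR9009 libraries came from mice on CDA-HFD, a high-fat diet lacking choline with defined amino acids, for 18 weeks. After 12 of those weeks these mice were injected intraperitoneally every day for 6 weeks, either with the vehicle alone (15% Kolliphor, Vehicle group) or with SR9009, at a daily dose of 100 mg/kg. This compound is an agonist of the REV-ERB nuclear receptors, transcriptional repressors of the circadian clock. Injection of Chow mice is not mentioned in the labels, and in any comparison with Chow the effects of diet and injection cannot be told apart. The hour of collection is not in the labels either. Chow replicate 5 was not analysed here. The labels give each library its own number within a group.

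Chemokines are small secreted proteins that bind G protein-coupled receptors on leukocytes and guide them along a concentration gradient into tissue. CC chemokines mostly draw monocytes, dendritic cells and T cells, ELR-containing CXC chemokines draw neutrophils, and interferon-inducible CXC chemokines draw activated T cells and natural killer cells. In injured liver they are made by hepatocytes, Kupffer cells, endothelium, stellate cells and bile duct cells, while most of the receptors sit on the leukocytes that arrive.

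Total counts ran from 29950509 to 45542335 per library. The hepatocyte genes Alb, Apoa1 and Ttr were abundant in every group, with Alb at 85465 ± 13194 CPM (SD, n = 4) in Chow and 58989 ± 3690 CPM (SD, n = 5) in Vehicle. CPM stands for counts scaled to a common library total, after TMM adjustment of the totals. In the SR9009 libraries Arntl, a direct REV-ERB target of the clock, was at 8.16 ± 4.07 CPM (SD, n = 5), against 23.1 ± 3.56 CPM (SD, n = 5) in Vehicle, with an adjusted p of 0.0482. Among the 4 Chow libraries, replicate 4 stood apart: it held the highest Chow value for 23 of the 42 reported members. Its summed CPM over 10 neutrophil markers was 15.7, against 3.49 to 4.34 in the others, and over 8 Kupffer cell markers 419, against 117 to 212. Monocyte and macrophage, dendritic cell and T cell markers also had their highest Chow sums in replicate 4. So did natural killer cell, B and plasma cell, and mast cell, basophil and eosinophil markers. B and plasma cell markers summed to 25.2 there, against 8.98 to 10.9 in the other Chow libraries. Results that turn on Chow replicate 4 are given with and without it.

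The report holds 11 members that had no Chow library with 10 counts and that passed the filter through the diet-fed libraries alone: Ccl3, Ccl4, Ccl7, Ccl17, Ccl20, Ccl22, Cxcl2, Cxcl5, Xcl1, Ccr1 and Ccr4. These had to be higher in diet-fed liver to be seen at all, and the counts over the reported members below are therefore descriptions. At the edge of the rule, Ccr4 reached 10 counts in 4 libraries and Ccl17 in 5, while Ccl8 and Ccr3 did so in 2. The 14 members not reported were Ccl1, Ccl8, Ccl11, Ccl12, Ccl21b, Ccl26, Ccl27b, Cxcl3, Cxcl15, Cxcl17, Ccr3, Ccr6, Ccr8 and Cxcr1. Ccl21b and Ccl27b had no count in any library. Near-identical copies of Ccl21a and Ccl27a exist in the mouse genome, so reads could be shared between copies and both are uncertain. In a GENCODE annotation of an earlier build, exons of Ccl25, Ccl27a, Ccr9, Cx3cr1, Cxcl10, Cxcl11, Cxcl16, Cxcr5 and Xcl1 overlapped exons of another gene. The sources used here do not give the strand setting of the counting, so reads of those 9 genes and of their overlapping partners cannot be told apart.

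The promoters of 3 genes are shown because Ccl3 and Cxcl9 are among the ligands called higher below, Cxcl13 is among those called lower, and each carries a match to the AGGTCA half-site, the core of the elements that REV-ERB proteins, the receptors SR9009 is used to activate, share with other nuclear receptors. RefSeq promoter windows of GRCm38.p6, from 250 bases before to 50 after the start of transcription, were found for 30 of the 42 reported members, as 33 windows. The 250 bases before the start of Ccl3 (chr11:83649379-83649628, minus strand), Cxcl9 (chr5:92328080-92328329, minus strand) and Cxcl13 (chr5:95956689-95956938, plus strand) are printed 5′ to 3′ on the strand of the gene. Capitals mark matches, on either strand, to AGGTCA or to the TATA box (TATAAA).
Ccl3: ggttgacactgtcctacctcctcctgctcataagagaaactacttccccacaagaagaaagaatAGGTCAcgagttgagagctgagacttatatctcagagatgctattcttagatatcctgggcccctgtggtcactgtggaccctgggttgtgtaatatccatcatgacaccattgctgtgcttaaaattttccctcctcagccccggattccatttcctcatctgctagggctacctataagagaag
Cxcl9: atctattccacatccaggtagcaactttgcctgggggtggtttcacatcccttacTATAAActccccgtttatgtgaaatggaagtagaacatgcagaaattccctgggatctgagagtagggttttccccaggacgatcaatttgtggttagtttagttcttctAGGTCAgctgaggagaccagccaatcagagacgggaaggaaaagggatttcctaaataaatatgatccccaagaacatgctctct
Cxcl13: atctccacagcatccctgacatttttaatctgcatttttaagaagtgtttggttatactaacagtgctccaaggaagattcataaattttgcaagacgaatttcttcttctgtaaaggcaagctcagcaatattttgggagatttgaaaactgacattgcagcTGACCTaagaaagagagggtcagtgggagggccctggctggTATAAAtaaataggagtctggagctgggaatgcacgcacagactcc
AGGTCA was found in the windows of 11 members, Ccl3, Ccl6, Ccl17, Ccl20, Ccl22, Ccl25, Ccl27a, Cxcl9, Cxcl13, Cxcl14 and Cxcr2, which is 33.3% of the 33 windows, against 16.3% of the 32851 windows in the table. TATAAA was found in 7, Ccl9, Ccl25, Cx3cl1, Cxcl9, Cxcl13, Cxcr4 and Xcr1 (21.2% of windows, against 13.6% overall). Matches to one motif overlapped none to the other in the members' windows. The members are few and share ancestry, and a match is only a string of letters in a window.

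Vehicle against Chow measures the diet together with vehicle injections. Of the 41 reported members that could be tested, 28 were called higher and 3 lower in Vehicle (edgeR's quasi-likelihood test, Benjamini-Hochberg adjusted p below 0.05 over 18181 genes). That is 75.6% of members called, against 55.2% of all genes; 68.3% were called higher, against 29.8%, and 7.32% lower, against 25.4%. The higher calls covered 18 of 28 ligands and 10 of 13 tested receptors, and the lower calls were all ligands: Ccl25, Ccl27a and Cxcl13. On raw library totals Ccl25 was the 1 member called lower. The median log2 fold change of the 41 was 2.44 (also with Ccl17, which had no Chow count, at its bound), against 0.02 over all tested genes. In 26 of the 41 every Vehicle library lay above every Chow library, as in 24.7% of all genes, and in 2 every Vehicle library lay below, as in 20.7%. Ccr4 did not pass the expression filter of the test. In bulk liver RNA, a change in the number of cells of a type and a change in RNA per cell cannot be told apart.

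Markers of immune cells moved in the same comparison, in which 29.8% of all genes were called higher and 25.4% lower. Of 12 monocyte and macrophage markers, 11 rose and 1 fell, and their summed CPM was 200 to 408 in Chow, 2222 to 3296 in Vehicle and 1839 to 3095 in SR9009. Of 10 T cell markers 9 rose (5.47 to 10.6 in Chow, 16.9 to 23.8 in Vehicle, 11.5 to 26.8 in SR9009), and of 7 natural killer cell markers 5 rose (0.744 to 1.57, 4.53 to 5.92 and 3.82 to 6.00). Dendritic cell markers rose in 6 of 7 cases (14.9 to 21.2, 31.2 to 43.0 and 29.8 to 39.4). Neutrophil markers rose in 7 of the 9 tested of 10 (3.49 to 15.7, 16.1 to 111 and 18.2 to 28.7), and the 111 was Vehicle replicate 2, with 16.1 to 41.7 in the other Vehicle libraries. In SR9009 against Chow, 2 of the 9 neutrophil markers were called higher, or 22.2%, against 30.5% of all genes. None of the 9 was called in SR9009 against Vehicle. Markers of Kupffer cells, which are macrophages that live in the liver, were mixed: of 8, Cd5l and Xylt1 rose and Timd4 and Cd163 fell, with a median log2 difference of -0.43. Log2 differences were -3.19 for Timd4 and -5.13 for Cd163, both taken as markers of long-resident cells, and the summed CPM of the 8 overlapped (117 to 419 in Chow, 204 to 369 in Vehicle, 198 to 434 in SR9009). None of 7 tested B and plasma cell markers was called, and their sums overlapped (8.98 to 25.2, 10.3 to 25.5 and 9.67 to 26.7). Members were left out of these lists. Among non-immune cells, all 8 bile duct cell markers rose (51.6 to 85.9, 421 to 991 and 470 to 1165), as did 9 of 10 stellate cell and fibroblast markers (138 to 209, 712 to 941 and 626 to 1262), while 6 of 8 hepatocyte markers fell. No marker in these lists was at 0 in all libraries. The part of any of these cell types in the chemokine results was not tested.

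**Figure D1:**
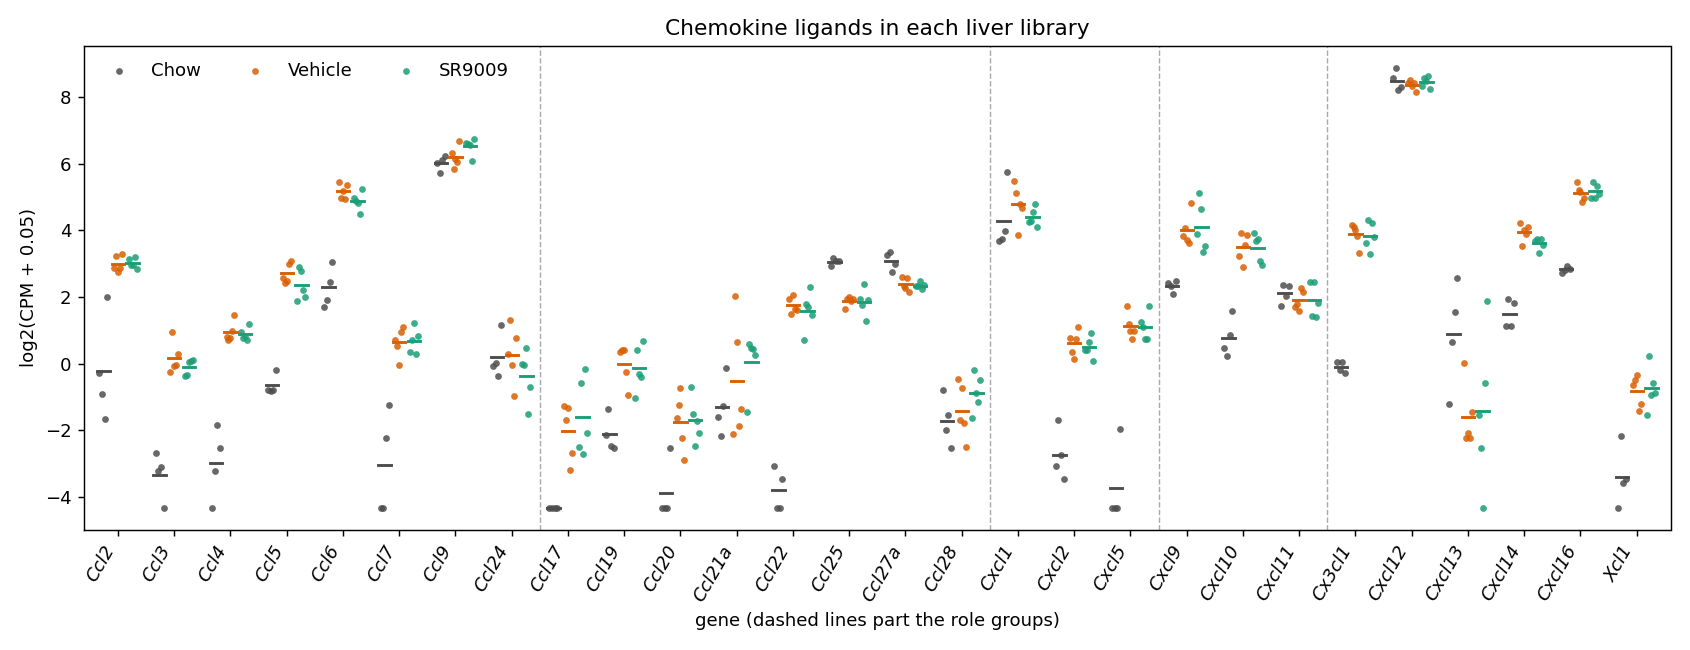
Levels of the reported ligand genes by library (CPM, log2 scale with a pseudocount of 0.05). Each point is 1 library and the bars are means of the log2 values. Vehicle and SR9009 libraries overlap for every ligand, and lie above Chow for most of them.

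The CC ligands that draw monocytes and other myeloid cells were higher in Vehicle for 6 of 8 reported members, and none was lower. Values per library are listed in the order of the replicate numbers. Ccl2, the main ligand of the monocyte receptor CCR2, was at 0.772, 0.487, 0.265 and 3.96 CPM in Chow, 7.21, 9.41, 6.73, 7.27 and 9.74 in Vehicle and 8.76, 7.77, 7.77, 9.15 and 7.13 in SR9009. All 10 diet-fed libraries were above all 4 Chow libraries, and Chow replicate 4 was far above the other Chow libraries. The difference of Vehicle from Chow was 2.62 ± 0.53 (SE) on the log2 scale, or 6.14-fold (adjusted p = 7.28e-04), and 4.0 on the log2 scale without Chow replicate 4.

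Ccl5, also called RANTES, attracts T cells and monocytes. It stood at 0.526, 0.515, 0.530 and 0.824 CPM in Chow, 5.89, 5.32, 5.55, 7.94 and 8.37 in Vehicle and 3.67, 7.50, 6.78, 4.59 and 3.93 in SR9009. Every diet-fed library was above every Chow library, and Vehicle was 11.1-fold higher (95% interval 7.34 to 16.9, adjusted p = 8.03e-08). Ccl6, a rodent chemokine of myeloid cells, was at 3.23, 3.72, 5.46 and 8.33 CPM in Chow and 44.0, 31.4, 36.4, 30.8 and 41.4 in Vehicle, a 7.16-fold rise without overlap (adjusted p = 2.84e-07).

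Ccl3 and Ccl4, the macrophage inflammatory proteins, were near the limit of detection in Chow. Ccl3 was at 0.105, 0.0573, 0.0662 and 0 CPM in Chow and 0.798 to 1.88 in Vehicle, and its log2 difference was 4.20 ± 0.47 (adjusted p = 1.99e-06). Ccl4 was at 0, 0.0573, 0.232 and 0.124 CPM in Chow and 1.58 to 2.71 in Vehicle, with a log2 difference of 4.19 ± 0.45 (adjusted p = 1.18e-06), which became 5.0 without Chow replicate 3. Neither gene overlapped between the groups. Ccl7, a second ligand of CCR2, was higher in Vehicle, at 0.932 to 2.11 CPM against 0 to 0.371 in Chow (log2 difference 3.65, and 4.81 without Chow replicate 4).

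Ccl9, a myeloid chemokine, and Ccl24, an eosinophil attractant also called eotaxin-2, were the members of this group not called. Ccl9 was at 52.5 to 75.7 CPM in Chow and 56.9 to 102 in Vehicle (adjusted p = 0.323). Ccl24 was at 0.728 to 2.18 CPM in Chow, where replicate 4 was the highest, and 0.466 to 2.42 in Vehicle (adjusted p = 0.797). Scaling to raw library totals shifted the median log2 fold change of all genes from 0.02 to 0.50, and on that scale Ccl9 was called higher at 0.67 (adjusted p = 0.00132).

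The ligands of CCR4 and of CCR6 to CCR10, which direct lymphocytes and dendritic cells, split: of 8 reported members 4 rose and 2 fell. The shares of all genes were 29.8% higher and 25.4% lower. Ccl22, a product of dendritic cells and macrophages that draws T cells bearing CCR4, was at 0.0702, 0, 0 and 0.0412 CPM in Chow, 3.81, 2.75, 4.16, 3.08 and 3.01 in Vehicle and 1.59, 3.39, 3.22, 4.91 and 2.72 in SR9009. The 4 Chow libraries held 3 counts in all, and the 5 Vehicle libraries 778. The ratio of the counts, each over its normalised total, was 132, with a 95% counting interval of 45.1 to 644, and 124 (42.4 to 605) for SR9009 over Chow. The adjusted p of Vehicle against Chow was 5.85e-08. The fitted log2 difference of 6.87 became 7.88 without Chow replicate 1, which held 2 of the 3 Chow counts.

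Ccl17, the other CCR4 ligand, had no count in Chow and was at 0.365, 0.259, 0.352, 0.0607 and 0.107 CPM in Vehicle and 0.127, 0.623, 0.104, 0.854 and 0.190 in SR9009. Against a floor of 3 counts over the Chow group it was at least 8.85-fold higher in Vehicle and at least 15.2-fold higher in SR9009. Diet-fed libraries differed widely among themselves for this gene. Ccl20, the ligand of CCR6 on T helper 17 cells and B cells, had 3 Chow counts, all in replicate 4. In Vehicle it was at 0.0854 to 0.559 CPM, a ratio of 11.4 (counting interval 3.74 to 56.7). That interval leaves out the spread between mice, and Chow replicate 4, at 0.124 CPM, lay above Vehicle replicate 5, at 0.0854. Ccr6 itself was not among the reported members. In a fit of the compared groups alone, Ccl17 and Ccl20 did not pass the expression filter.

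Ccl19 and Ccl21a are the ligands of CCR7, through which dendritic cells and naive T cells reach lymphoid tissue. Ccl19 was at 0.175, 0.344, 0.132 and 0.124 CPM in Chow and 1.23, 1.27, 1.28, 0.789 and 0.470 in Vehicle. Every Vehicle library was higher, the difference being 2.32 ± 0.47 on the log2 scale (adjusted p = 5.82e-04). Ccl21a overlapped, at 0.172 to 0.866 CPM in Chow and 0.182 to 4.07 in Vehicle, where replicate 2 was the highest (adjusted p = 0.134).

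Ccl25 and Ccl27a, best known from thymus and gut and from skin, were called lower in Vehicle. Ccl25, the ligand of CCR9, was at 7.51, 9.02, 8.34 and 8.37 CPM in Chow, 3.10, 3.81, 3.97, 3.62 and 3.76 in Vehicle and 3.82, 3.31, 5.22, 2.37 and 3.70 in SR9009. No diet-fed library reached the lowest Chow library, and Chow was 2.27-fold higher than Vehicle (log2 difference -1.18 ± 0.18, adjusted p = 3.44e-05). Ccl27a, a ligand of CCR10, was at 9.65, 10.2, 6.72 and 7.96 CPM in Chow and 5.98, 4.94, 4.76, 5.91 and 4.38 in Vehicle, again without overlap (log2 difference -0.73 ± 0.14, adjusted p = 3.68e-04). On raw library totals the Ccl27a difference was -0.25 and not called (adjusted p = 0.129). Ccl28, the second CCR10 ligand, was at 0.124 to 0.526 CPM in Chow and 0.128 to 0.684 in Vehicle and was not called (adjusted p = 0.577).

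The neutrophil attractants Cxcl1, Cxcl2 and Cxcl5 act on CXCR2. Cxcl2 was at 0.0702, 0.258, 0.0993 and 0.0412 CPM in Chow and 1.67, 1.22, 1.06, 1.64 and 2.09 in Vehicle, 12.1-fold higher with no overlap (log2 difference 3.60, adjusted p = 2.21e-06, and 4.36 on the log2 scale without Chow replicate 2). Cxcl5 was at 0, 0, 0 and 0.206 CPM in Chow and 3.31, 2.26, 1.95, 1.62 and 1.92 in Vehicle, with all of its Chow counts in replicate 4 (log2 difference 5.57 ± 0.64, adjusted p = 2.80e-06). Its groups did not overlap, and its fitted value without Chow replicate 4 has no Chow count behind it.

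Cxcl1 was at 12.8, 13.2, 15.9 and 53.5 CPM in Chow, 44.3, 34.6, 14.5, 27.6 and 25.7 in Vehicle and 18.9, 19.5, 23.5, 27.4 and 17.1 in SR9009. Chow replicate 4 was the highest of all 14 libraries, and the groups overlapped. The log2 difference was 0.31 ± 0.42 and was not called (adjusted p = 0.563); without Chow replicate 4 it was 1.07 and called (adjusted p = 0.00567). Its adjusted p under the alternatives ran up to 0.861.

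The interferon-inducible ligands Cxcl9, Cxcl10 and Cxcl11 act on CXCR3. Cxcl10 was at 1.33, 1.12, 1.79 and 2.93 CPM in Chow, 9.38, 15.1, 7.47, 11.8 and 14.5 in Vehicle and 15.3, 12.8, 13.4, 8.36 and 7.77 in SR9009. It was 6.60-fold higher in Vehicle (95% interval 4.15 to 10.5, adjusted p = 3.72e-06), with no overlap. Cxcl9 was at 5.26, 5.01, 4.20 and 5.52 CPM in Chow and 14.3, 16.9, 12.9, 12.3 and 28.5 in Vehicle, where replicate 5 stood highest, a 3.40-fold rise (adjusted p = 0.00102).

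Cxcl11 was at 3.30, 5.13, 4.07 and 4.99 CPM in Chow and 3.19, 3.44, 2.96, 4.78 and 4.38 in Vehicle. The groups overlapped, and the log2 difference of -0.22 ± 0.25 was not called (adjusted p = 0.472); its sign turned on raw library totals, to 0.25.

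Of the 6 remaining ligands, 4 rose, 1 fell and Cxcl12 was not called, where 29.8% of all genes rose and 25.4% fell. Cx3cl1, or fractalkine, is a membrane-bound chemokine that tethers monocytes bearing CX3CR1. It was at 0.982, 0.830, 0.993 and 0.783 CPM in Chow, 17.7, 17.0, 16.2, 14.2 and 9.95 in Vehicle and 12.3, 19.8, 9.72, 18.6 and 13.8 in SR9009. Chow libraries all stayed below 1 CPM, and Vehicle was 16.7-fold higher (95% interval 11.5 to 24.2, adjusted p = 6.86e-09). Cxcl16, a membrane-bound scavenger receptor and the ligand of CXCR6, was at 6.56, 7.04, 7.61 and 7.09 CPM in Chow and 43.3, 36.7, 35.2, 28.8 and 31.2 in Vehicle, 4.95-fold higher (adjusted p = 2.97e-09).

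Cxcl14, a chemokine of epithelia, was at 2.14, 3.81, 2.15 and 3.46 CPM in Chow and 18.5, 11.6, 16.2, 14.9 and 17.1 in Vehicle, 5.41-fold higher without overlap (adjusted p = 5.80e-08). Xcl1, secreted by natural killer and T cells and read by cross-presenting dendritic cells through XCR1, was at 0, 0.172, 0.0331 and 0.0412 CPM in Chow and 0.593, 0.659, 0.745, 0.324 and 0.384 in Vehicle. Its log2 difference was 2.98 ± 0.64 (adjusted p = 9.17e-04), and 4.32 without Chow replicate 2, the highest Chow library.

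Cxcl12, which retains leukocytes and progenitors through CXCR4, was at 384, 469, 299 and 313 CPM in Chow, 345, 366, 319, 344 and 287 in Vehicle and 320, 383, 354, 394 and 301 in SR9009. The groups overlapped, and the log2 difference of -0.14 ± 0.13 (adjusted p = 0.371) changed sign on raw library totals, to 0.34. Cxcl13, the B cell attractant of lymphoid follicles, was at 0.386, 1.52, 2.88 and 5.94 CPM in Chow, 0.958, 0.165, 0.186, 0.162 and 0.320 in Vehicle and 0.297, 0.125, 0, 0.619 and 3.62 in SR9009. Chow libraries spanned more than the difference between groups, and Vehicle replicate 1 was above Chow replicate 1. The difference of -2.89 ± 1.10 on the log2 scale was called (adjusted p = 0.0380), but not without Chow replicate 3 or 4 or without Vehicle replicate 2, 3, 4 or 5, when adjusted p ran from 0.0643 to 0.138. Without Vehicle replicate 1 it was -3.65, and without Chow replicate 4 it was -2.15. It was also not called by limma-voom (adjusted p = 0.0752), on raw library totals (adjusted p = 0.0573) or with no filter on low counts (adjusted p = 0.105). Over all alternatives its adjusted p ran from 0.00897 to 0.138.

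**Figure D2:**
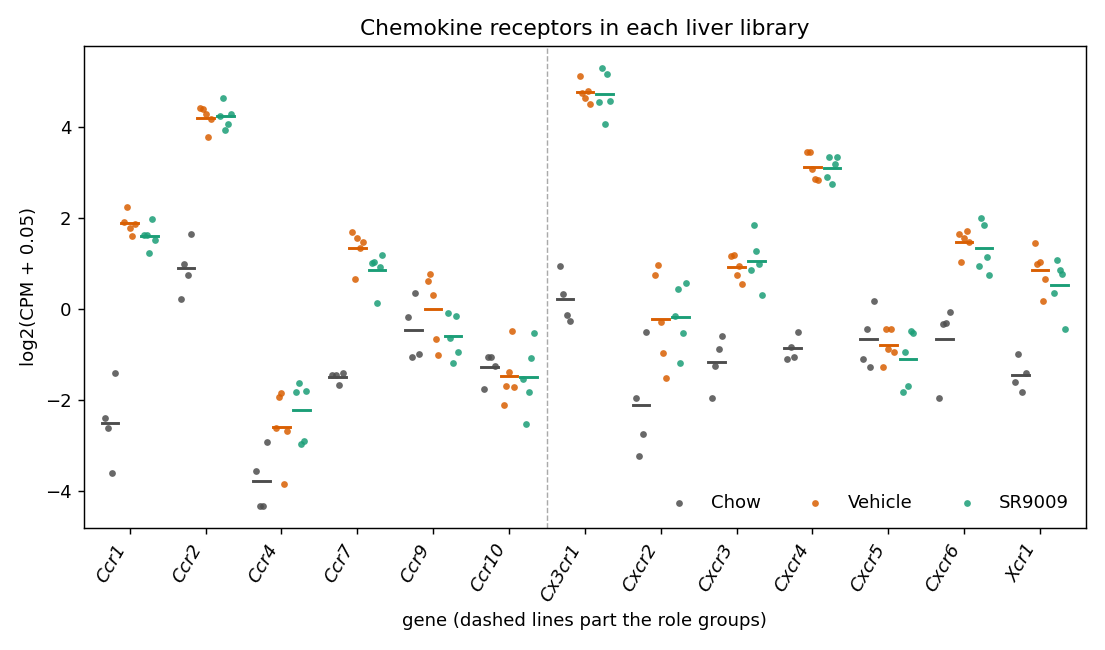
Levels of receptor genes by library (CPM, log2 scale with a pseudocount of 0.05). Each point is 1 library and the bars are means of the log2 values. Ccr9, Ccr10 and Cxcr5 overlap across the 3 groups, as do Ccr4 and Cxcr2, while for the other receptor genes shown every diet-fed library lies above every Chow library.

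Among CC receptors, none was called lower in Vehicle, against 25.4% of all genes. Ccr2, which carries inflammatory monocytes out of bone marrow and into tissue, was at 1.12, 1.92, 1.62 and 3.09 CPM in Chow, 21.1, 20.8, 19.3, 13.6 and 17.8 in Vehicle and 18.7, 24.8, 15.2, 16.7 and 19.4 in SR9009. The highest Chow library was well under the lowest diet-fed one, and Vehicle was 9.64-fold higher (95% interval 6.75 to 13.8, adjusted p = 4.22e-08). Ccr1, a receptor of myeloid cells, was at 0.140, 0.115, 0.0331 and 0.330 CPM in Chow and 3.72, 4.68, 3.35, 2.98 and 3.61 in Vehicle, with a log2 difference of 4.62 ± 0.36 (adjusted p = 5.39e-08), or 5.22 without Chow replicate 4.

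Ccr7, the receptor that brings dendritic cells to lymph nodes, was at 0.316, 0.315, 0.265 and 0.330 CPM in Chow and 3.17, 1.53, 2.90, 2.47 and 2.71 in Vehicle, 8.29-fold higher (adjusted p = 4.80e-07), with no overlap between Chow and Vehicle. Ccr4, the receptor of Ccl17 and Ccl22 on regulatory and T helper 2 cells, had 3 counts over Chow and 31 over Vehicle. The ratio was 5.28, with a 95% counting interval of 1.65 to 27.0 that leaves out the spread between mice. Ccr4 was not tested, and Vehicle replicate 4 (0.0202 CPM) lay below Chow replicate 4 (0.0824). Ccr9, the gut-homing receptor of Ccl25, and Ccr10, the receptor of Ccl27a and Ccl28, were not called. Ccr9 was at 0.429 to 1.22 CPM in Chow and 0.448 to 1.65 in Vehicle (adjusted p = 0.318), and Ccr10 at 0.246 to 0.430 and 0.182 to 0.668 (adjusted p = 0.853).

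Of the 7 CXC, CX3C and XC receptors, 6 were called higher, against 29.8% of all genes. Cxcr4, the receptor of Cxcl12, was at 0.421, 0.515, 0.430 and 0.660 CPM in Chow, 10.9, 10.8, 8.30, 7.15 and 7.07 in Vehicle and 7.42, 9.99, 6.60, 9.03 and 10.0 in SR9009. No Chow library reached 1 CPM, and Vehicle was 17.4-fold higher (95% interval 12.5 to 24.4). Its adjusted p of 1.75e-09 was the lowest of the 41. Cx3cr1, the fractalkine receptor of monocytes, was at 1.86, 1.20, 0.861 and 0.783 CPM in Chow, 34.6, 26.4, 24.7, 27.4 and 22.4 in Vehicle and 23.2, 39.0, 16.5, 35.7 and 23.4 in SR9009, a 22.8-fold rise in Vehicle (95% interval 14.5 to 36.1, adjusted p = 3.22e-08).

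Xcr1, a receptor of cross-presenting dendritic cells, was at 0.281, 0.458, 0.232 and 0.330 CPM in Chow and 2.67, 1.93, 1.99, 1.07 and 1.54 in Vehicle (5.56-fold, adjusted p = 3.60e-05). Cxcr3, the T cell and natural killer cell receptor of Cxcl9 to Cxcl11, was at 0.211, 0.372, 0.497 and 0.618 CPM in Chow and 2.19, 2.21, 1.61, 1.86 and 1.41 in Vehicle (4.39-fold, adjusted p = 8.37e-05). Cxcr6, which keeps lymphocytes in liver sinusoids, was at 0.211 to 0.907 CPM in Chow and 2.00 to 3.20 in Vehicle (4.23-fold). None of these 3 overlapped between Chow and Vehicle. Cxcr5, the B cell receptor of Cxcl13, was at 0.364 to 1.07 CPM in Chow and 0.365 to 0.688 in Vehicle and was not called (adjusted p = 0.663).

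Cxcr2, the neutrophil receptor of Cxcl1, Cxcl2 and Cxcl5, was at 0.211, 0.0573, 0.0993 and 0.660 CPM in Chow, 1.62, 1.91, 0.766, 0.466 and 0.299 in Vehicle and 0.848, 1.30, 0.390, 0.640 and 1.45 in SR9009. Chow replicate 4 lay above the lowest Vehicle libraries, so the groups overlapped. The log2 difference of 2.04 ± 0.70 was called (adjusted p = 0.0215). It was not called without Chow replicate 1, 2 or 3 or Vehicle replicate 2 (adjusted p from 0.0529 to 0.067). Nor was it called with a term for whether a library had few or many olfactory-type receptor genes detected (1.04, adjusted p = 0.217). Without Chow replicate 4 it was 3.05.

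Ligand and receptor genes that pair with one another are set side by side in the plot of 12 pairs. Both genes of the pairs Ccl2 and Ccr2, Ccl3 and Ccr1, Ccl19 and Ccr7, Cxcl2 and Cxcr2, Cxcl10 and Cxcr3, Cxcl16 and Cxcr6, Cx3cl1 and Cx3cr1, and Xcl1 and Xcr1 were called higher in Vehicle. For Cxcl12 and Cxcr4 only the receptor gene was called, with log2 differences of -0.14 and 4.13. In the pairs Ccl25 and Ccr9, Ccl27a and Ccr10, and Cxcl13 and Cxcr5 the ligand gene was called lower and the receptor gene was not called. The pairs were drawn from textbook knowledge after the values had been seen, and most receptors have other ligands too. Among ligands left out of the plot, Ccl21a for Ccr7, Cxcl1 for Cxcr2 and Cxcl11 for Cxcr3 were not called. Ccl7 for Ccr2, Cxcl5 for Cxcr2 and Cxcl9 for Cxcr3 were called higher. Ccl3, Ccr1, Cxcl2 and Xcl1 had passed the filter through the diet-fed libraries alone, and 29.8% of all genes were called higher. The plot is therefore a description.

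**Figure D3:**
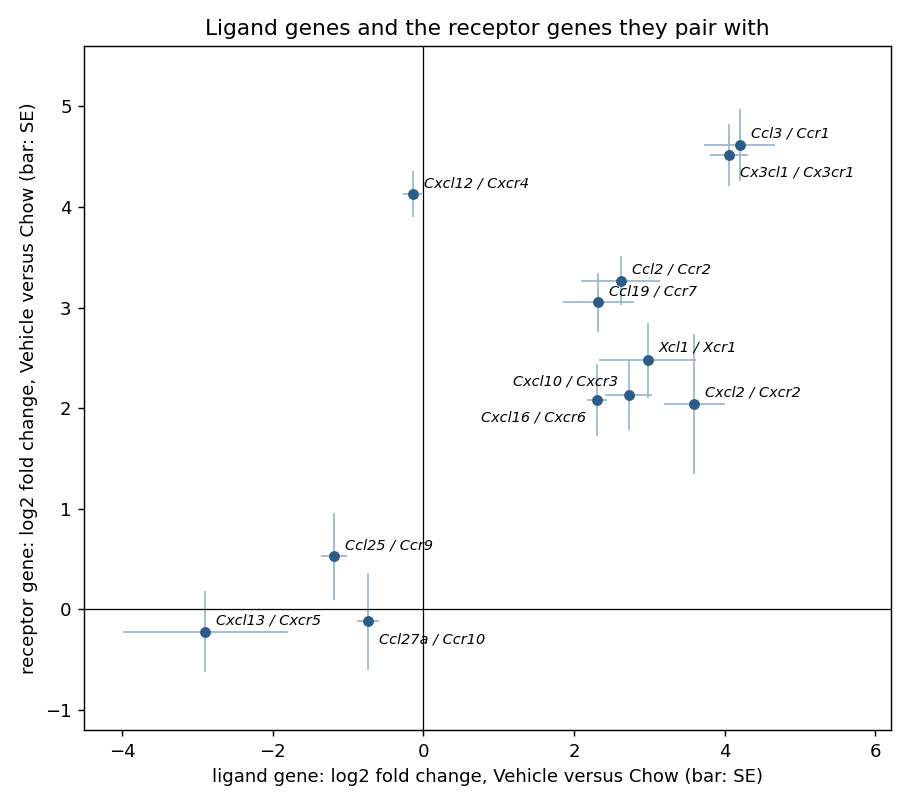
Log2 fold change of Vehicle against Chow for 12 ligand genes (horizontal axis) and the receptor genes they pair with (vertical axis). Bars are standard errors. Most pairs lie in the upper right, Cxcl12 and Cxcr4 lie at the top near 0 on the ligand axis, and Ccl25, Ccl27a and Cxcl13 lie to the left with receptor values near 0.

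Other genes of the chemokine system were read from lists of textbook genes. Of 8 atypical receptors, which bind chemokines or related ligands without classical signalling or outside the main families, 4 rose and 1 fell. That is 62.5% called, against 55.2% of all genes, and 50% called higher, against 29.8%. Ccrl2, a chemerin-presenting receptor, rose, with 1.53 to 2.29 CPM in Chow and 4.39 to 6.66 in Vehicle (2.81-fold, adjusted p = 2.43e-06), Cmklr1, the chemerin receptor, 4.38-fold and Pitpnm3 7.59-fold. Gpr182, a scavenging receptor of endothelium, fell, with 22.5 to 31.0 CPM in Chow and 10.2 to 20.8 in Vehicle (log2 difference -0.66, adjusted p = 0.0113). Of 4 platelet or atypically named chemokines, Pf4 rose 6.59-fold (adjusted p = 4.08e-07) and the other three, among them Mif and Rarres2, were not called.

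Signal transduction genes behind the receptors were called higher in 25 of 27 cases (92.6%, against 29.8% of all genes) and lower in 1, Gnai3 (log2 difference -0.24). Rgs1, which shuts off G protein signalling in leukocytes, rose, with 0.421 to 1.22 CPM in Chow and 7.78 to 11.6 in Vehicle (10.8-fold, adjusted p = 7.42e-09), and Rgs2 and Prkcd rose 5.42-fold and 2.75-fold. Many of these genes are themselves leukocyte genes. Among cytokines that induce chemokines, 8 of 14 were tested, 6 rose and Il18 fell (log2 difference -0.46). The 6 are 75% of those tested, against 29.8% of all genes. Tnf rose, with 0.105 to 0.289 CPM in Chow and 1.78 to 3.50 in Vehicle (13-fold, adjusted p = 1.62e-07), Ltb 6.72-fold and Tgfb1 3.26-fold.

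Of 19 transcription factor genes known to act on chemokine promoters, inhibitor of NF-kB included, 10 rose and 2 fell. That is 63.2% called, against 55.2% of all genes, and 52.6% called higher, against 29.8%. Irf8, a factor of myeloid cells, rose 4.37-fold (adjusted p = 7.74e-08), and the NF-kB subunit genes Nfkb2 and Relb rose 3.55-fold and 7.69-fold. Nr1d1, which encodes REV-ERB alpha, a target of SR9009, fell, with 110 to 166 CPM in Chow and 58.2 to 94.2 in Vehicle (log2 difference -0.76, adjusted p = 6.62e-04), and Irf3, an interferon regulatory factor, was lower by a smaller amount (log2 difference -0.33, adjusted p = 0.00137). Of 8 tested enzymes that cleave chemokines, 4 rose and 1 fell, or 62.5% called and 50% called higher, against the same shares of all genes. Mmp12, the macrophage elastase, was at 0.211 to 0.515 CPM in Chow and 241 to 373 in Vehicle (826-fold, adjusted p = 3.17e-13), and Mmp14 and Mmp2 rose 2.61-fold and 13.7-fold. Dpp4, a peptidase that trims the ends of several chemokines, was called lower (log2 difference -0.53, adjusted p = 0.00536). These lists were not refitted on raw library totals, whose shift of 0.50 is close in size to the falls of Gpr182, Dpp4 and Il18 and larger than those of Irf3 and Gnai3.

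The comparison of SR9009 with Vehicle asked whether the REV-ERB agonist changed these genes on the same diet. No reported member was called in edgeR's quasi-likelihood test, DESeq2 or limma-voom, against a background of 0.242% of all genes called in edgeR. At an unadjusted p below 0.05 there were 2 of 41, or 4.88%, against 7.28% of all genes. Every one of the 41 overlapped between the groups; among all genes, 0.891% lay wholly above and 0.979% wholly below. The median log2 difference was -0.02. No gene of the atypical receptor, signalling, cytokine, transcription factor or enzyme lists was called in this comparison either, and none of the immune cell markers was. All 9 tested neutrophil markers had a lower fitted value in SR9009, with a median log2 difference of -0.82. Over all genes 9045 of 18181 were lower. The neutrophil marker sum was 111 in Vehicle replicate 2. In the other Vehicle libraries it was 16.1 to 41.7, overlapping the 18.2 to 28.7 of SR9009. Fitted values were also lower for 7 of 7 dendritic cell, 6 of 7 B and plasma cell and 8 of 10 T cell markers. They were lower for 8 of 12 monocyte and macrophage, 5 of 7 natural killer cell, 3 of 8 Kupffer cell and 6 of 8 hepatocyte markers. They were higher for all 8 bile duct cell, all 8 red cell and platelet and all 6 mesothelial markers. The same held for 8 of 10 sinusoidal endothelium and 7 of 10 stellate cell and fibroblast markers.

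The data bounded the size of a change for many members. For 30 of the 41 the 95% interval of the fold change lay within 2-fold in both directions, 20 of 28 ligands and 10 of 13 receptors. SR9009 over Vehicle was 1.02-fold for Ccr2 (95% interval 0.776 to 1.35), 1.04-fold for Cxcl16 (0.875 to 1.23), 0.976-fold for Cxcr4 (0.769 to 1.24) and 0.988-fold for Cxcl10 (0.679 to 1.44). For Ccl2 it was 1.01-fold, with a wider interval of 0.535 to 1.89. Sparse or uneven genes were poorly bounded: for Cxcl13 the interval was 0.541 to 12.6 and for Ccl17 0.612 to 4.52.

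The 6 members with the smallest unadjusted p were Cxcl14, Ccr7, Ccl9, Ccr9, Ccl24 and Ccl5. Cxcl14 was at 18.5, 11.6, 16.2, 14.9 and 17.1 CPM in Vehicle and 12.9, 13.3, 9.96, 13.2 and 11.7 in SR9009, a log2 difference of -0.36 ± 0.16 (unadjusted p = 0.0397, adjusted p = 0.642). Only Vehicle replicate 2 lay inside the SR9009 range. Ccr7 was at 3.17, 1.53, 2.90, 2.47 and 2.71 CPM in Vehicle and 1.97, 1.99, 1.04, 1.84 and 2.23 in SR9009 (log2 difference -0.49 ± 0.23, unadjusted p = 0.0447, adjusted p = 0.659), again with only Vehicle replicate 2 inside the SR9009 range.

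Ccl9 was at 79.6, 56.9, 70.6, 66.2 and 102 CPM in Vehicle and 97.5, 96.5, 94.4, 67.1 and 108 in SR9009 (log2 difference 0.31, adjusted p = 0.725). Ccl5 was at 5.32 to 8.37 CPM in Vehicle and 3.67 to 7.50 in SR9009 (-0.32, adjusted p = 0.846). For Ccr9 the SR9009 range was 0.390 to 0.891 CPM (-0.72, adjusted p = 0.771) and for Ccl24 0.299 to 1.35 (-0.70, adjusted p = 0.826). The groups overlapped in all 4.

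**Figure D4:**
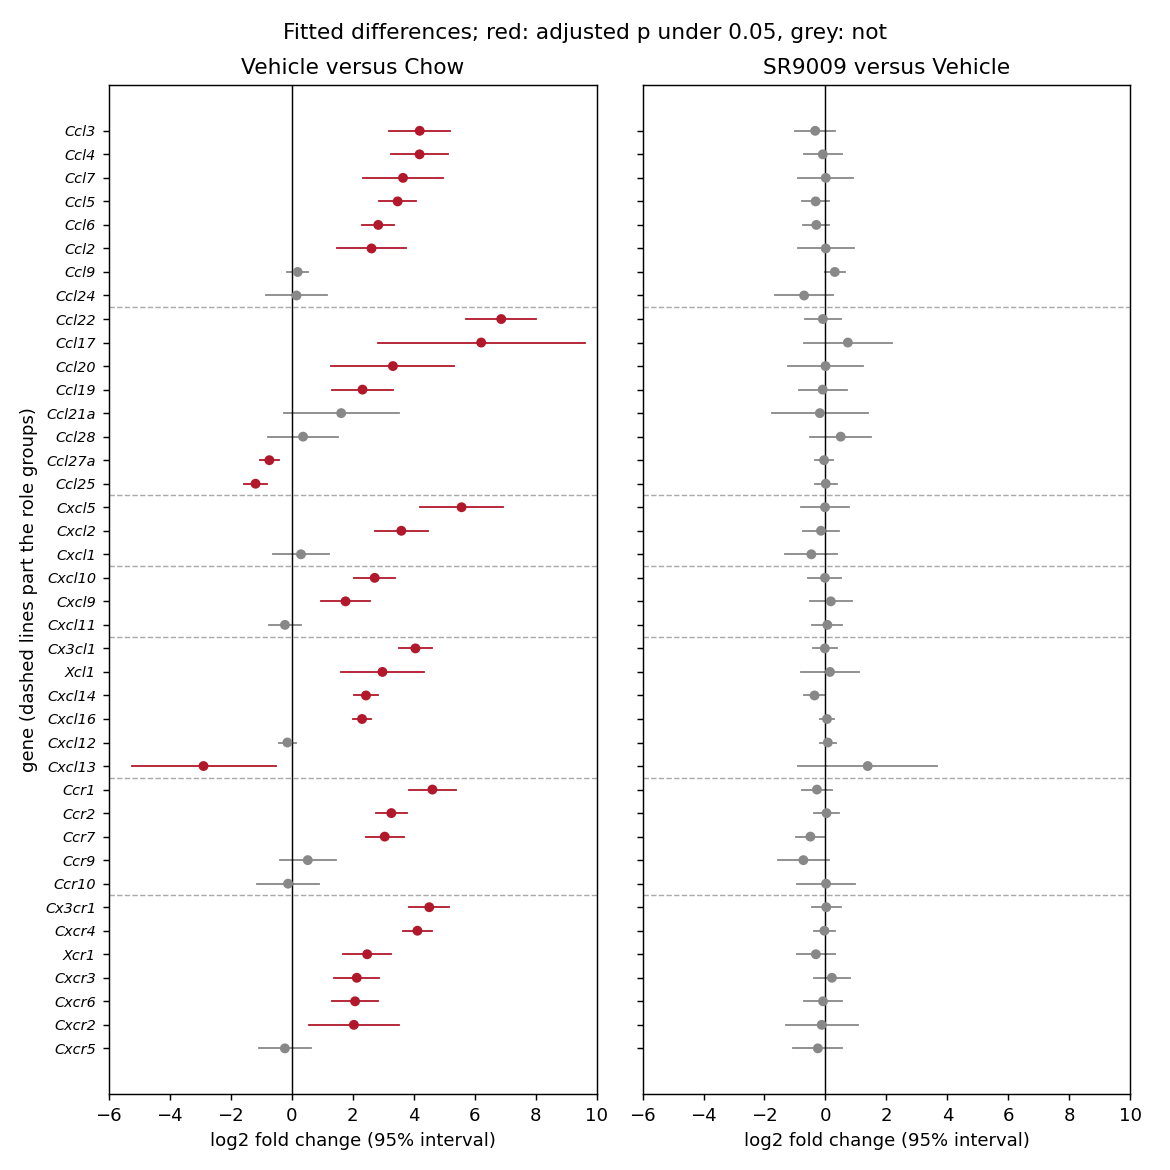
Log2 fold changes of 40 of the 41 tested members with 95% intervals, for Vehicle against Chow and for SR9009 against Vehicle. Red marks an adjusted p below 0.05. Vehicle against Chow is mostly above 0, SR9009 against Vehicle has a median of -0.02 and no red point, and the fitted values of Ccl17, Ccl20 and Ccl22 against Chow rest on 3 or fewer Chow counts.

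SR9009 against Chow shares its Chow libraries with the first comparison, so the values of both are given side by side. Of 41 members, 29 were called higher and 2 lower, 75.6% in all against 56.2% of all genes (70.7% against 30.5% higher, 4.88% against 25.7% lower). The higher calls held all 28 called in Vehicle and Ccl9. Ccl9 was 0.50 ± 0.16 on the log2 scale (adjusted p = 0.0162), against 0.20 in Vehicle, and was not called without Chow replicate 2 (0.41, adjusted p = 0.0578). Ccl25 and Ccl27a were lower in both, at -1.18 and -0.78 in SR9009 against -1.18 and -0.73 in Vehicle. On raw library totals the Ccl27a difference from Chow in SR9009 was -0.33 and not called (adjusted p = 0.0552).

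Log2 differences from Chow were 2.63 in SR9009 and 2.62 in Vehicle for Ccl2, 3.30 and 3.27 for Ccr2, and 4.04 and 4.06 for Cx3cl1. They were 4.09 and 4.13 for Cxcr4, 2.36 and 2.31 for Cxcl16, and 2.56 and 3.05 for Ccr7. Ccr4 had 39 counts over SR9009, a ratio to Chow of 7.13 (95% counting interval 2.27 to 36.1). It was not tested, and SR9009 replicate 3 (0.0780 CPM) lay below Chow replicate 4 (0.0824). Cxcr2 was called at 1.92 (adjusted p = 0.0291), but not without Chow replicate 1, 2 or 3 or SR9009 replicate 2 or 5 (adjusted p from 0.0576 to 0.0873). Cxcl13 was not called (-1.51, adjusted p = 0.230), and was called at -3.30 without SR9009 replicate 5 (adjusted p = 0.00805), the library that held more of it than any other diet-fed one.

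**Figure D5:**
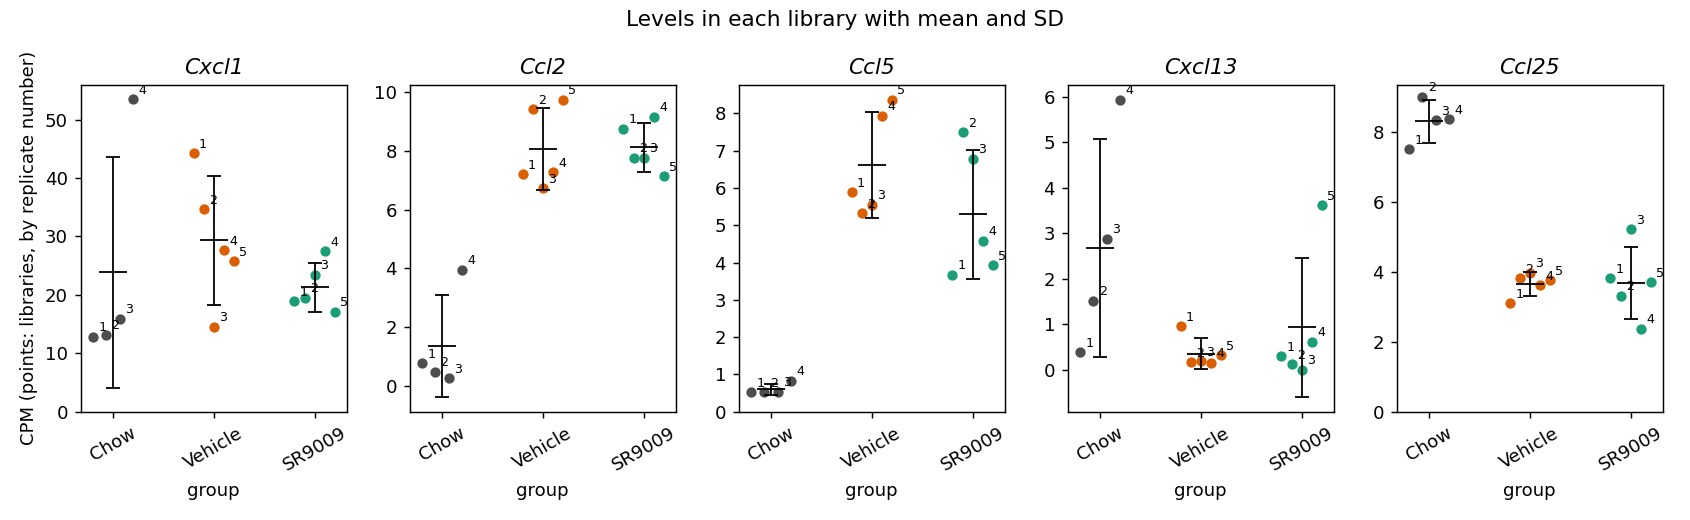
Levels (CPM, each panel with its own linear axis) of 5 ligand genes. Points are libraries marked by replicate number, and bars are the mean and SD of the group. Chow replicate 4 is the highest Chow library for Ccl2 and Cxcl1, and SR9009 replicate 5 stands above the other SR9009 libraries for Cxcl13.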

How the data were processed

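The authors deposited raw counts, not normalized, in a table with Ensembl identifiers in rows and libraries in columns. The submitters' processing notes name STAR 2.7.11b and the build GRCm39. The sources used here do not say how reads were assigned to genes, nor with which annotation and strand setting. Symbols came from a reference table and matched 51880 identifiers (90.8%) holding 99.6% of counts.

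Counts of 14 libraries were fitted together with edgeR 4.0.16 in R 4.3.3: filterByExpr (minimum count 10, minimum total 15) kept 18181 genes, libraries were scaled by TMM (factors 0.753 to 0.824 in Chow, 1.02 to 1.15 in diet-fed libraries), and robust quasi-likelihood tests were adjusted over the 18181 genes (Benjamini-Hochberg, threshold 0.05). On the TMM scale, 3 counts in 1 library corresponded to between 0.0607 and 0.124 CPM. Counting intervals are exact at 95% and cover counting error only. Within groups, all 26 library pairs differed by more than counting noise (mean chi-square of a gene at least 15.9), and none was counted as a repeat. The labels assign 1 mouse to a library only by number, so p-values measure the spread between these samples. The pipeline was tested on simulated data. DESeq2 1.42.0, limma 3.58.1 (voom with quality weights), other scalings and filters, a replicate block and leaving out each library were alternatives. Another used a class seen in the data: of 1752 receptor genes for odours, pheromones and trace amines, 113 or fewer had a count in the Chow libraries, Vehicle replicates 4 and 5 and SR9009 replicates 1 and 3, and more in the rest.

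The members and lists were chosen with earlier results of these data known. Named genes were, per role group, up to 4 members with the smallest adjusted p and every member called lower in Vehicle against Chow; in SR9009 against Vehicle, called members and the 6 smallest unadjusted p; and 3 genes per pathway list. All other reported members are given by range, and some genes counted in the totals are not reported here by name. Genes named beyond this rule (Gpr182, Dpp4, Gnai3, Il18, Nr1d1, Irf3 and the 4 Kupffer cell markers) were chosen after their values were seen. The 2 promoter motifs and the 3 promoters printed were chosen after a search with longer motifs, not reported here because no source file holds them.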

Additional observations from a re-analysis of the deposited data

Results flagged for a closer look

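Within each group of 4 or 5 libraries, the highest and lowest value of every reported member was compared with its neighbour. In 126 such groups, 10 single libraries stood apart, 9 high and 1 low. The rule flags about 1 in 20 groups, or 6.3, only where values are normally distributed and groups independent. CPM values are skewed, 6 of the 10 flags were in Chow replicate 4, and those of Cxcl5 and Ccl20 arose beside values of 0. The number of flags is therefore not weighed against 6.3. The high values in Chow replicate 4 were Cxcl1 at 53.5 CPM (next highest 15.9), Ccl2 at 3.96 (next 0.772), Ccl24 at 2.18 (next 0.973), Ccl5 at 0.824 (next 0.53), Cxcl5 at 0.206 (next 0) and Ccl20 at 0.124 (next 0). The same library had the highest Chow sum of every immune cell marker list, those of neutrophils and Kupffer cells included. The part of those cells in these values was not tested.

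Cxcl13 stood apart high in Vehicle replicate 1, at 0.958 CPM (next 0.32), and in SR9009 replicate 5, at 3.62 (next 0.619). Cxcl9 was high in Vehicle replicate 5, at 28.5 CPM (next 16.9). Ccl21a was low in SR9009 replicate 1, at 0.318 CPM (next 1.16).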

How the results depend on the processing

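Over 25 alternatives, 33 results on single named genes gave 771 values: 756 kept their direction and side of the threshold, 10 lost the call, 1 gained it (Cxcl1 without Chow replicate 4) and 4 changed sign. For 27 of the 33 genes and comparisons nothing changed. Most of the 33 were named for having among the smallest p-values, a choice that favours results that hold. Cxcr2 against Chow, which lost its call in several of these settings, was not among the 33. Neither were Ccl9, Ccl17 and Ccl20 in Vehicle against Chow. The sign changes were Cxcl11 in Vehicle against Chow, at 0.25 on raw library totals and 0.18 with the receptor-gene class as a term, and, among libraries with few receptor genes, Ccl24 at 0.13 and Ccr9 at 0.32 in SR9009 against Vehicle; the cause was not tested. None of these 4 values was called in either setting.

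Leaving out 1 library at a time, Vehicle against Chow called 27 to 30 members higher and 2 to 3 lower, SR9009 against Chow 27 to 30 higher and 2 to 3 lower, and SR9009 against Vehicle 0. On raw library totals, an alternative chosen after seeing the data, members called higher were 31 in both comparisons with Chow, and members called lower fell to 1 in each. Over all genes that scaling called 10389 higher and 1378 lower in Vehicle against Chow, against 5414 and 4621, and its shift of the median to 0.50 (0.47 in SR9009 against Chow) is part of how it is built. For SR9009 against Vehicle the numbers of genes called higher and lower over the whole table were 30 and 14 in the reported fit, 117 and 81 in DESeq2, 40 and 26 in limma-voom, 53 and 25 with the class term, and 14 and 1 with the replicate block, with 0 members among them each time.

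Same-numbered libraries of different groups did not deviate together: over 13 pairs the correlation ran from -0.36 to 0.20 and was above 0.1 in 3. The replicate block called 27 members higher and 3 lower in Vehicle against Chow, 28 and 3 in SR9009 against Chow and 0 in SR9009 against Vehicle. It ended the call of Cxcr2 against Chow in Vehicle (adjusted p = 0.0532) and in SR9009 (adjusted p = 0.0702) and called Cxcl13 in SR9009 against Chow (-3.08, adjusted p = 0.0413). Depth limited the sparse members: 11 had no Chow library with 10 counts, and their fold changes against Chow rest on few counts.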

Other observations

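Ccl8, a CC chemokine, was not among the reported members, but 157 of its 204 counts were in SR9009 replicate 5. That library also stood apart for Cxcl13. In the other libraries Ccl8 had at most 15 counts. The summed CPM of 7 mast cell, basophil and eosinophil markers was 14.9 in that library, against 1.53 to 3.08 in the other diet-fed libraries. The mast cell proteases Mcpt4, Cpa3 and Tpsb2 reached 3.29, 4.34 and 5.83 CPM there, against SR9009 group medians of 0.127, 0.128 and 0.0212. In SR9009 replicate 5 the sum of 8 B and plasma cell markers was 26.7, against 9.67 to 14.3 in the other SR9009 libraries. In Vehicle that sum was 10.3 to 25.5. Red cell and platelet markers summed to 873 in SR9009 replicate 5, against 112 to 470 in the other diet-fed libraries. Whether these values are linked was not tested.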
